A study of Homo sapiens with 12 samples.

Results

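The 9 genes described here encode the kinases CDK7, CDK9, CDK12 and CDK13 and the proteins that form active complexes with them: CCNH (cyclin H), MNAT1, CCNT1 and CCNT2 (cyclins T1 and T2) and CCNK (cyclin K). They were chosen by name, with earlier results of these data known, and are 9 of the 57755 gene identifiers in each table. All 9 were found once per table and all 9 are among the 15610 genes tested, which had at least 1 FPKM (fragments per kilobase of transcript, scaled to the fragments of the library) in at least 2 libraries. The data are RNA-seq of polyadenylated RNA from KYSE510 and TE7, human cell lines that the labels give as esophageal squamous cell carcinoma. The groups are THZ1 at 50 nM for 2, 4, 6 and 12 h, THZ1 at 200 nM for 6 h, and the vehicle DMSO, with 1 library per line in each, 12 libraries in all. The 2 DMSO libraries are titled as 0 h, while their time label says 12 h, and they served all comparisons with DMSO. Time in culture and time in THZ1 therefore cannot be told apart.

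CDK7, cyclin H and MNAT1 make up the CDK-activating kinase. As part of the general transcription factor TFIIH it phosphorylates the C-terminal domain (CTD) of RNA polymerase II at the start of transcription, and on its own it activates cell-cycle kinases. CDK9 with cyclin T1 or T2 forms P-TEFb, which releases paused polymerase into elongation, and CDK12 and CDK13, each with cyclin K, phosphorylate the CTD during elongation and are known for sustaining the transcription of long genes. THZ1 binds CDK7 covalently and is known to bind CDK12 and CDK13 at higher doses, so the transcripts described here encode the compound's own targets and their partners. The libraries measure RNA only, and neither kinase activity nor protein level was measured.

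RefSeq gives an upstream window for all 9 genes on GRCh38.p14, and the windows of CCNT2 and CDK12 are shown because these transcripts moved in opposite directions after 12 h at 50 nM. Each is the 250 bases before the gene's start, both on the plus strand, at chr2:134918572-134918821 for CCNT2 and chr17:39461236-39461485 for CDK12. Capitals mark matches to any of 6 short motifs, searched on both strands, and no 2 matches overlap here. The first was the TATA box, spelled TATAAA. The second was the CCAAT box, spelled as it is named. The GC box, a site of Sp1-type factors, was searched as GGGCGG. The E-box, a site of Myc-type factors, was searched as CACGTG. The core site of ETS factors was searched as GGAAGT. The short form of the cAMP response element was searched as TGACG.
CCNT2: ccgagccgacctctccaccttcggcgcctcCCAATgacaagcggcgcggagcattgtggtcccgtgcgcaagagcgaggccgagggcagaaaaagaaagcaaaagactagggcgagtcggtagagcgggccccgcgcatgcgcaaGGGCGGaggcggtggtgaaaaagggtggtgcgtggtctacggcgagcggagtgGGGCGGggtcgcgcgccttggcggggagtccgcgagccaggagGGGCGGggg
CDK12: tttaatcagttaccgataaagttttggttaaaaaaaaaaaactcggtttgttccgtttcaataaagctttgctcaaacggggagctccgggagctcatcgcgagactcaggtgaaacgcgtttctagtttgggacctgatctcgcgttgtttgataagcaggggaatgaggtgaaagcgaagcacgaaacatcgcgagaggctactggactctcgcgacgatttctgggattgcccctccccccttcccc
The CCNT2 window held 1 CCAAT box and 3 GC boxes in 69.6% G and C. The CDK12 window held none of the 6 motifs in 48.8% G and C. The median window of all 35116 in the table was 58% G and C. The 9 genes have 12 windows, some of which overlap. A GC box stood in 7 of these 12 windows and in 42.6% of all windows, a CCAAT box in 3 and in 32.0%, a short cAMP response element in 7 and in 21.2%, an ETS core in 5 and in 19.5%, an E-box in 3 and in 6.34%, and a TATA box in 0 and in 10.7%. A match is a description of these letters and says nothing of binding.

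In DMSO all 9 transcripts were present in both lines, and their levels can be compared between genes because FPKM is a scale per length. MNAT1, an assembly factor of the CDK7 complex, was highest with 58.8 FPKM in KYSE510 and 60.2 FPKM in TE7. CDK13 had the lowest mean, with 10.2 FPKM in both lines, while in TE7 alone CCNT1 was lower (9.72 FPKM). The means of the 2 DMSO libraries ran from MNAT1 (59.5 FPKM) through CDK9 (41.1), CCNK (37.1), CDK7 (24.2), CCNH (21.2), CDK12 (17.3), CCNT2 (11.1) and CCNT1 (10.5) to CDK13 (10.2 FPKM). Both DMSO libraries of MNAT1 stood above both of CDK9, those of CCNK above those of CDK7, those of CCNH above those of CDK12, and those of CDK12 above those of CCNT2. The remaining neighbours in this order overlapped. Over all 12 libraries CDK7 had the widest range, 10.6-fold between its highest and its lowest level, and CCNT2 the narrowest, 2.51-fold.

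**Figure D1:**
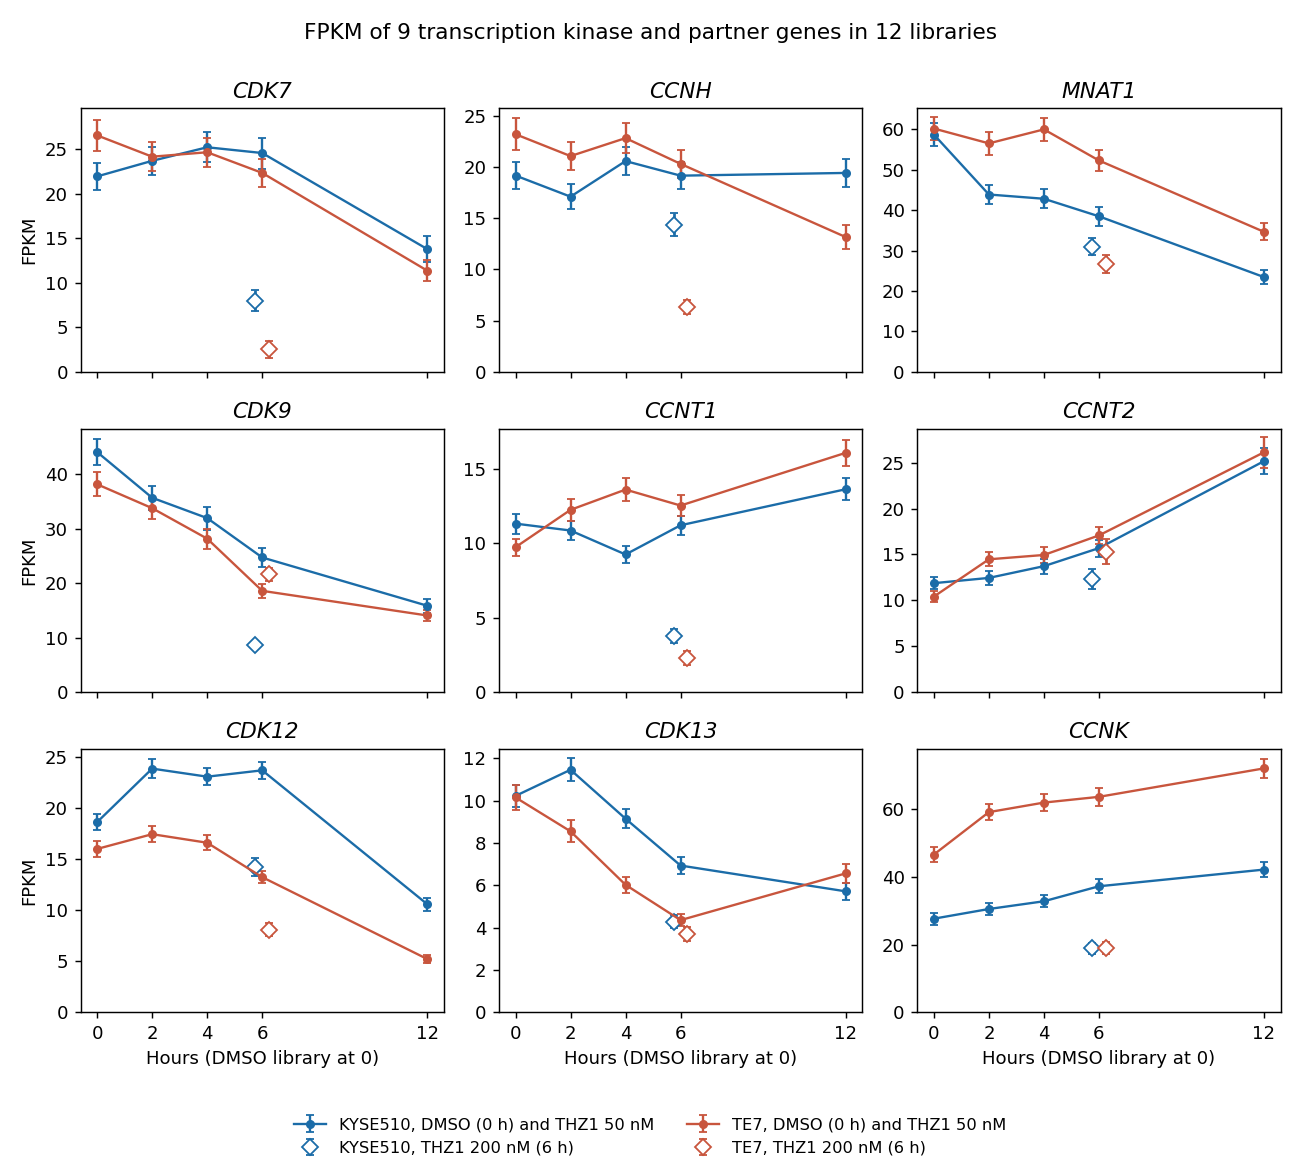
FPKM of each of the 9 genes (vertical axes, each starting at 0) against hours of THZ1 at 50 nM, with the DMSO library drawn at 0 h and the THZ1 200 nM library as an open diamond at 6 h. Points are single libraries of KYSE510 (blue) and TE7 (red), and bars are the deposited 95% bounds. CDK9 was lower at each later time in both lines, CCNT2 ended at 25.2 and 26.1 FPKM after 12 h, and the open diamonds of CDK7 and CCNT1 lie under all other points of their gene.

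The libraries differ in ways that touch every value below. FPKM summed to between 383975 and 729515 per library, and fragment totals are not known here. The deposited 95% bounds of the 9 genes lay between 3.60% and 37.8% to either side of the value. Each comes from 1 library and does not cover variation between replicate libraries. All 14 squamous epithelial markers reached 1 FPKM in every library except SOX2 in TE7 at 200 nM (0.975 FPKM), and columnar markers were under 1 FPKM except CDX2, which had 1.03 to 6.22 FPKM in KYSE510 at 50 nM and was listed at 0 in its DMSO library. Of 8 fibroblast markers, 5 were under 1 FPKM in every library. COL1A1 had 6.62 to 8.66 FPKM in KYSE510, DCN 2.11 to 3.68 FPKM in TE7, and COL3A1 4.21 FPKM in KYSE510 at 200 nM and 2.17 FPKM in TE7 DMSO. The summed fibroblast markers were 8.64 FPKM in DMSO, 7.42 to 9.10 at 50 nM and 12.2 at 200 nM in KYSE510, and 8.65, 4.44 to 5.98 and 4.36 FPKM in TE7. Of 5 leukocyte markers CD68, a lysosomal protein gene, had 1.85 to 14.6 FPKM and the other 4 were under 1 FPKM, as were the 3 endothelial markers found. Across the 15610 genes the 2 h library correlated with DMSO at r = 0.879 in KYSE510 and at r = 0.976 in TE7, and the 200 nM library correlated with the 50 nM library at 6 h at r = 0.855 and 0.865. The keratin KRT14 had 449 to 564 FPKM in KYSE510 at 50 nM and 2.62 FPKM at 200 nM, against 28.7 FPKM in DMSO. The library labelled KYSE510 DMSO and both 200 nM libraries thus stand apart, and where the count of members called changes when the other 9 libraries alone are fitted, that count is given beside the result. Those 9 libraries include no 200 nM library, so no such count exists for any comparison with 200 nM. The part in the results of the libraries that stand apart was not tested beyond that.

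At 2 and 4 h of 50 nM no member passed the test against DMSO, and none did at 6 h. The test was limma on log2(FPKM + 1) with a block for the cell line, and a gene was called at an adjusted p under 0.05 (Benjamini-Hochberg over the 15610 genes). At an unadjusted p under 0.05 there were 0 members at 2 h, 0 at 4 h and 3 at 6 h. Few other genes passed either, 0.0128% of those tested at 2 h, 0.0769% at 4 h and 4.71% at 6 h. The 3 members at 6 h were CDK9 (log2 difference -0.90 ± 0.37, SE, limma adjusted p = 0.20), CDK13 (-0.78 ± 0.25, adjusted p = 0.114) and CCNT2 (0.52 ± 0.19, adjusted p = 0.157). CDK9 passed at 6 h without the KYSE510 200 nM library (limma adjusted p = 0.0168) or without the TE7 200 nM library (limma adjusted p = 0.0169). With only the 9 libraries that do not stand apart 4 members passed at 6 h, where 24.5% of all tested genes did, with CCNT2 and CCNK higher and CDK9 and CDK13 lower than in DMSO.

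After 12 h at 50 nM, 4 of the 9 transcripts had changed from DMSO: MNAT1, CDK9 and CDK12 fell and CCNT2 rose. Of all tested genes, 28.4% passed in this comparison, 3.27% higher and 25.2% lower. With only the 9 libraries that do not stand apart 8 members passed, all but CCNH, and 52.3% of all tested genes did. That fit called CDK7 and CDK13 lower and CCNT1 and CCNK higher in addition, and its DMSO group is the TE7 library alone. The median difference of all tested genes was -0.42 and that of the 9 members was -0.65, so the changes called at 12 h are also given relative to the median gene. After 6 h at 200 nM, 7 of the 9 had fallen relative to DMSO (all but CCNT2 and CDK12) and 0 had risen, where 38.5% of all genes passed, 3.22% higher and 35.3% lower. There the median difference of all tested genes was -0.65 and that of the members was -1.06. The falls beyond the median gene are given for CDK7 and CDK13, and the other 200 nM falls include the fall of the median gene. Both comparisons share the 2 DMSO libraries. The 200 nM calls could not be refitted with only the 9 libraries that do not stand apart, which include no 200 nM library. FPKM gives each gene's share of the RNA in a bulk library, so fewer cells of a kind and less RNA per cell cannot be told apart.

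**Figure D2:**
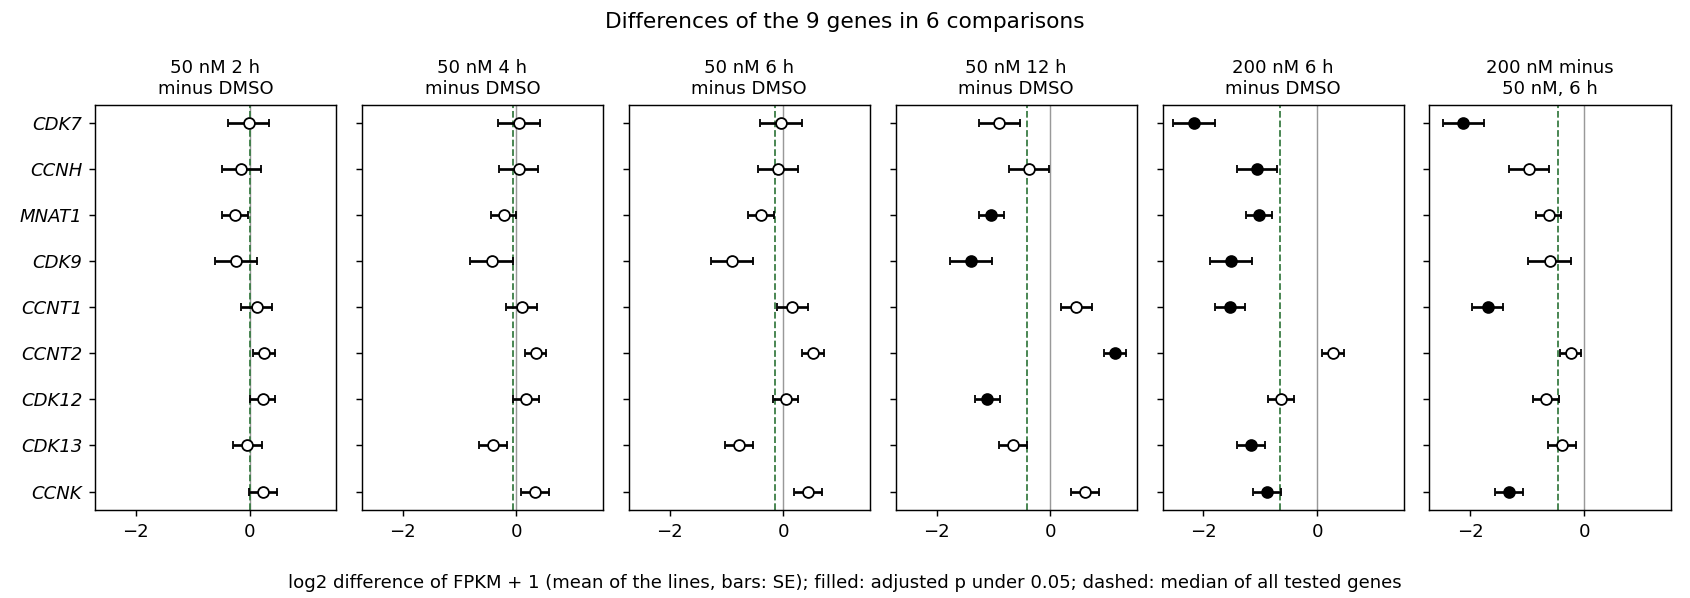
Log2 differences of FPKM + 1 for the 9 genes (rows) in 6 comparisons (panels), each the mean over both lines with its SE as a bar. Filled points passed limma at an adjusted p under 0.05, and the dashed line is the median of all 15610 tested genes. At 12 h of 50 nM 3 filled points lie left of 0 and CCNT2 lies right of it. At 200 nM 7 filled points lie left of 0. With median-of-ratios scaling 0 of the 12 h falls and 1 of the 200 nM falls (CDK7) passed. With equal sums of FPKM all 3 of the 12 h falls passed, and at 200 nM CDK7, CCNT1 and CDK13 did.

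How the libraries are scaled to each other decides most of these calls. FPKM were used as deposited. When the libraries were rescaled by the median of ratios, so that the median gene differed by 0.03 at 12 h and by -0.01 at 200 nM, 3 members were called at 12 h, all higher (CCNT1, CCNT2 and CCNK) and 0 lower, against 1 higher and 3 lower with the deposited values. At 200 nM the same scaling left 1 lower (CDK7) and 1 higher (CCNT2), against 7 lower and 0 higher with the deposited values. Upper-quartile scaling gave 2 higher and 0 lower at 12 h, and 1 higher and 1 lower at 200 nM. Scaling to equal sums of FPKM over the tested genes kept the falls at 12 h. It called MNAT1, CDK9, CDK12 and CDK13 lower and CCNT2 higher there, and CDK7, CCNT1 and CDK13 lower at 200 nM. The rise of CCNT2 at 12 h and the fall of CDK7 at 200 nM were called under all of these. The shares of all tested genes called under the other scalings are not given here. These counts of members are therefore not set against a background.

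Of the CDK-activating kinase genes, CDK7 showed the largest difference, at the higher dose. It (ENSG00000134058, chromosome 5, 68530668 to 68573250 on hg19) had 21.9 FPKM in KYSE510 DMSO and 23.7, 25.2, 24.6 and 13.8 FPKM after 2, 4, 6 and 12 h at 50 nM. In TE7 it had 26.5 FPKM in DMSO and 24.1, 24.6, 22.3 and 11.3 FPKM at the same times. Its level thus stayed between 21.9 and 26.5 FPKM up to 6 h and was lower in both lines at 12 h, where the test against DMSO was not passed (log2 difference -0.90 ± 0.36, SE, limma adjusted p = 0.103). Leaving out the 200 nM library of KYSE510 or of TE7 gave CDK7 an adjusted p of 0.00793 or 0.00771 at 12 h in limma, and with only the 9 libraries that do not stand apart it was 0.00181. At 200 nM CDK7 had 7.98 FPKM in KYSE510 and 2.49 FPKM in TE7, below every other library of its line. It fell by 2.16 on the log2 scale against DMSO (SE 0.36, limma adjusted p = 0.00317), or by 1.51 beyond the median gene, and only 5.86% of tested genes had a lower difference. Against 50 nM at the same 6 h, CDK7 fell by 2.12 (SE 0.36, limma adjusted p = 0.00565). Without the 50 nM 6 h library of KYSE510 or of TE7 this dose difference had limma adjusted p = 0.0519 or 0.0545, and under the 3 other scalings it stayed between -1.75 and -1.47 with adjusted p up to 0.0334.

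CCNH (ENSG00000134480, chromosome 5, 86687311 to 86708836), the cyclin that activates CDK7, was between 17.1 and 20.6 FPKM in the 5 KYSE510 libraries of DMSO and 50 nM. In TE7 it was between 20.3 and 23.2 FPKM in DMSO and up to 6 h, and 13.2 FPKM at 12 h. At 200 nM it had 14.4 FPKM in KYSE510 and 6.33 FPKM in TE7, against 19.2 and 23.2 FPKM in DMSO. The gap was wider in TE7, and in KYSE510 the 200 nM value lay below the other 5 libraries by a smaller margin. CCNH fell by 1.06 on the log2 scale (SE 0.35, limma adjusted p = 0.0442). That call was lost when any 1 library other than KYSE510 at 200 nM was left out (limma adjusted p 0.0573 to 0.201), under all 3 other scalings, and without the block (limma adjusted p = 0.0869). The RAS regulator gene RASA1 overlaps the listed locus of CCNH and had 4.03 to 13.4 FPKM, and whether reads were counted by strand is not given in the sources used here.

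MNAT1 (ENSG00000020426, chromosome 14, 61201460 to 61436671) was lower at 12 h in both lines. In KYSE510 it had 58.8 FPKM in DMSO and 43.9, 42.8, 38.5 and 23.4 FPKM after 2, 4, 6 and 12 h at 50 nM, and in TE7 60.2 FPKM in DMSO and 56.6, 60.0, 52.3 and 34.6 FPKM. The KYSE510 values were lower at each later time, while those of TE7 up to 6 h stayed within 52.3 to 60.2 FPKM. After 12 h it fell by 1.04 against DMSO (SE 0.23, limma adjusted p = 0.0127), or by 0.62 beyond the median gene. The call was lost without the KYSE510 DMSO library (limma adjusted p = 0.0527), without the KYSE510 12 h library (limma adjusted p = 0.0789) and without the block (limma adjusted p = 0.0638). At 200 nM MNAT1 had 31.0 and 26.7 FPKM in KYSE510 and TE7, against 58.8 and 60.2 FPKM in DMSO, and fell by 1.02 (SE 0.23, limma adjusted p = 0.00983). Under the other scalings these falls shrank to between -0.54 and -0.43 at 12 h, apart from equal sums (-1.20), and to between -0.66 and -0.17 at 200 nM.

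Within a library CDK7 stood lower relative to its partners at 200 nM than in DMSO. The ratio of CDK7 to CCNH was 0.556 in KYSE510 and 0.394 in TE7 at 200 nM, against 1.14 in both DMSO libraries. At 50 nM it was between 1.08 and 1.38 from 2 to 6 h, and 0.709 and 0.862 at 12 h. MNAT1 stood at 3.88 times CDK7 in KYSE510 and 10.7 times in TE7 at 200 nM, against 2.68 and 2.27 times in DMSO. The TE7 ratio rests on CDK7 at 2.49 FPKM, with deposited 95% bounds of 1.55 to 3.44 FPKM. At 50 nM MNAT1 stood at 1.57 to 1.85 times CDK7 in KYSE510, below DMSO, and at 2.34 to 3.05 times in TE7, above DMSO. These ratios do not depend on how libraries are scaled, and with 1 library per line and condition they are given without a test.

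CDK9 was lower at each later time at 50 nM in both lines. CDK9 (ENSG00000136807, chromosome 9, 130547958 to 130553066), the catalytic subunit of P-TEFb, had 44.1 FPKM in KYSE510 DMSO and 35.7, 32.0, 24.7 and 15.9 FPKM after 2, 4, 6 and 12 h. In TE7 it had 38.2 FPKM in DMSO and 33.8, 28.2, 18.6 and 14.1 FPKM. The 12 h values of the lines lay close together and below all other 50 nM libraries of this gene. After 12 h CDK9 fell by 1.40 against DMSO (SE 0.37, limma adjusted p = 0.0264), or by 0.98 beyond the median gene. This call was lost when the DMSO library of KYSE510 (limma adjusted p = 0.106) or of TE7 (0.0538) or the 12 h library of KYSE510 (0.0858) or of TE7 (0.145) was left out, and with no filter on low values (limma adjusted p = 0.0674) or no block (limma adjusted p = 0.0536). It was also lost with median-of-ratios (-0.81, limma adjusted p = 0.156) and upper-quartile scaling (-0.91, 0.119), and held with equal sums (-1.56, 0.0232). A slope over the 10 DMSO and 50 nM libraries, described below, used all times and held for CDK9 under every scaling.

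At 200 nM the lines parted for CDK9. KYSE510 had 8.62 FPKM and TE7 21.6 FPKM at 200 nM, against 24.7 and 18.6 FPKM at 50 nM and 6 h and 44.1 and 38.2 FPKM in DMSO. The level in TE7 at 200 nM was thus above that at 50 nM, and the level in KYSE510 was below it. Over both lines CDK9 fell by 1.51 against DMSO (SE 0.37, limma adjusted p = 0.0150). That call was lost without the KYSE510 DMSO library, where the DMSO group is the TE7 library alone. It was also lost with equal sums (-1.16, limma adjusted p = 0.0697), median-of-ratios (-0.69, 0.207) and upper-quartile scaling (-0.68, 0.210). The dose difference was not passed over both lines (-0.61 ± 0.37, SE, limma adjusted p = 0.262). It was passed without the TE7 200 nM library (-1.32, limma adjusted p = 0.0033).

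The cyclins of P-TEFb did not move with their kinase at 50 nM. CCNT2 (ENSG00000082258, chromosome 2, 135675805 to 135716912) had 11.9 FPKM in KYSE510 DMSO and 12.4, 13.7, 15.7 and 25.2 FPKM after 2, 4, 6 and 12 h, and in TE7 10.4 FPKM in DMSO and 14.5, 14.9, 17.1 and 26.1 FPKM. Each later library was higher in both lines, and both 12 h libraries stood above every other library. After 12 h CCNT2 rose by 1.14 on the log2 scale against DMSO (SE 0.19, limma adjusted p = 0.00484), a 2.20-fold rise of FPKM + 1, and 96.7% of tested genes had a lower difference. Relative to the median gene the rise was 1.56. It passed under all 23 alternatives. All of them rest on FPKM, a share of each library, so a rise of CCNT2 RNA per cell was not tested. At 200 nM CCNT2 had 12.3 and 15.3 FPKM in KYSE510 and TE7, against 11.9 and 10.4 FPKM in DMSO. That difference was not passed (0.28 ± 0.19, SE, limma adjusted p = 0.266), but was called higher with median-of-ratios scaling (1.09, limma adjusted p = 0.00928) and upper-quartile scaling (1.10, limma adjusted p = 0.00832).

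CCNT1 (ENSG00000129315, chromosome 12, 49082247 to 49110681), the other P-TEFb cyclin, differed from CCNT2 at 200 nM. It had 3.76 FPKM in KYSE510 and 2.30 FPKM in TE7 at 200 nM, against 11.3 and 9.72 FPKM in DMSO. All 10 other libraries had 9.23 FPKM or more, so the 200 nM values did not overlap them. CCNT1 fell by 1.53 against DMSO (SE 0.27, limma adjusted p = 0.00393) and by 1.70 against 50 nM at 6 h (SE 0.27, limma adjusted p = 0.00431). The fall against 50 nM passed under all 22 alternatives that could be run for it. The fall against DMSO was -0.82 with limma adjusted p = 0.0809 under median-of-ratios scaling and -0.81 with adjusted p = 0.0804 under upper-quartile scaling. After 12 h at 50 nM CCNT1 had 13.6 FPKM in KYSE510 and 16.1 FPKM in TE7, the highest library of each line, and the difference from DMSO was 0.46 (SE 0.27, limma adjusted p = 0.239). It was 0.69 with only the 9 libraries that do not stand apart (limma adjusted p = 0.0150).

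The balance of P-TEFb transcripts therefore differed within each library, whatever the scaling. CDK9 over the sum of CCNT1 and CCNT2 was 1.90 in DMSO in both lines. At 50 nM it was 1.53, 1.39, 0.919 and 0.409 after 2, 4, 6 and 12 h in KYSE510, and 1.27, 0.987, 0.628 and 0.333 in TE7. CCNT2 over CCNT1 was 3.27 in KYSE510 and 6.64 in TE7 at 200 nM, against 1.05 and 1.07 in DMSO, and 1.85 and 1.63 after 12 h at 50 nM. At 200 nM CDK9 over the sum was 0.536 in KYSE510 and 1.23 in TE7. The kinase transcript thus exceeded the sum of its cyclins in DMSO and was below it at 12 h in both lines, while at 200 nM it was below the sum in KYSE510 and above it in TE7.

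**Figure D3:**
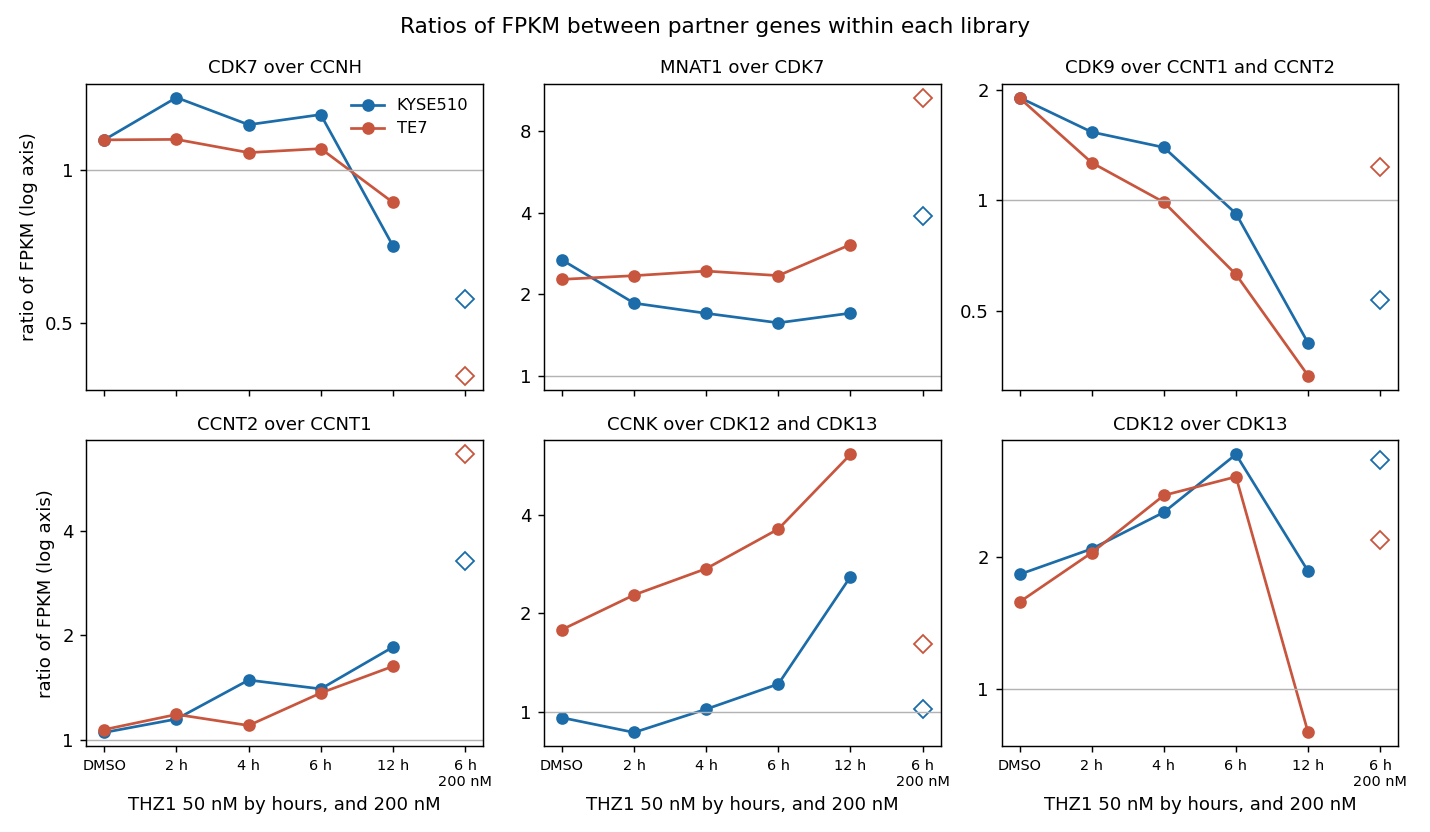
Ratios of FPKM between partner genes within each library, on log axes, for DMSO, THZ1 at 50 nM by hours and THZ1 at 200 nM (open diamonds), in KYSE510 (blue) and TE7 (red). Each point is 1 library. CDK9 over its cyclins was 1.90 in both DMSO libraries and 0.409 and 0.333 at 12 h, and CCNK over CDK12 and CDK13 was 2.58 and 6.11 at 12 h, above every other library of its line.

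Of the kinases that share cyclin K, CDK12 fell after 12 h at 50 nM and CDK13 fell at 200 nM, and the genes were not tested against each other. CDK12 (ENSG00000167258, chromosome 17, 37617764 to 37721160) had 18.6 FPKM in KYSE510 DMSO and 23.9, 23.1, 23.7 and 10.6 FPKM after 2, 4, 6 and 12 h at 50 nM. In TE7 it had 16.0 FPKM in DMSO and 17.5, 16.6, 13.2 and 5.22 FPKM. KYSE510 stayed above its DMSO level up to 6 h, TE7 did so up to 4 h, and the 12 h library was the lowest of each line. After 12 h CDK12 fell by 1.11 against DMSO (SE 0.22, limma adjusted p = 0.00969), or by 0.69 beyond the median gene. Without the TE7 12 h library the fall was -0.92 (limma adjusted p = 0.0702), and without the block limma gave an adjusted p of 0.154. With median-of-ratios scaling the difference was -0.54 (limma adjusted p = 0.0929) and with upper-quartile scaling -0.64 (limma adjusted p = 0.0534). With equal sums it was -1.24 (limma adjusted p = 0.00783). Against 6 h at the same dose the difference was -1.14 (SE 0.22, limma adjusted p = 0.0593), and against 2 h CDK12 fell by 1.34 (SE 0.22, limma adjusted p = 0.00731).

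CDK12 and CCNT2 were the 2 members not called at 200 nM. CDK12 had 14.3 and 8.10 FPKM in KYSE510 and TE7 at 200 nM, against 18.6 and 16.0 FPKM in DMSO, a difference of -0.63 (SE 0.22, limma adjusted p = 0.0570). It passed without the KYSE510 DMSO library (-0.86, limma adjusted p = 0.0293) and with a mean of at least 5 FPKM (limma adjusted p = 0.0401). The sign was positive under median-of-ratios (0.18) and upper-quartile scaling (0.19), neither called.

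CDK13 (ENSG00000065883, chromosome 7, 39989636 to 40136733) was below DMSO at every time at 50 nM in TE7. It had 10.2 FPKM in KYSE510 DMSO and 11.5, 9.15, 6.93 and 5.72 FPKM after 2, 4, 6 and 12 h, and 10.2 FPKM in TE7 DMSO and 8.55, 6.02, 4.36 and 6.56 FPKM. The TE7 value was lowest at 6 h and higher again at 12 h, while in KYSE510 the 12 h value was the lowest of the 50 nM libraries. At 12 h the difference from DMSO was -0.65 (SE 0.25, limma adjusted p = 0.0866), and it passed with equal sums of FPKM (limma adjusted p = 0.0456) and with only the 9 libraries that do not stand apart (0.0383). At 200 nM CDK13 had 4.29 and 3.71 FPKM in KYSE510 and TE7, against 10.2 FPKM in both DMSO libraries. It fell by 1.16 (SE 0.25, limma adjusted p = 0.00848), and by 0.51 beyond the median gene, with limma adjusted p of 0.245 and 0.268 under median-of-ratios and upper-quartile scaling.

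CCNK (ENSG00000090061, chromosome 14, 99947506 to 100001381) was higher at each later time at 50 nM in both lines, while it was lowest at 200 nM. It had 27.6 FPKM in KYSE510 DMSO and 30.5, 32.8, 37.2 and 42.1 FPKM after 2, 4, 6 and 12 h, and in TE7 46.6 FPKM in DMSO and 59.1, 61.9, 63.6 and 72.0 FPKM. At 200 nM both lines had about the same level, 18.9 FPKM in KYSE510 and 19.0 FPKM in TE7. CCNK fell by 0.89 at 200 nM against DMSO (SE 0.24, limma adjusted p = 0.0232) and by 1.32 against 50 nM at 6 h (SE 0.24, limma adjusted p = 0.00773). The first call was lost without the KYSE510 DMSO (limma adjusted p = 0.0590), TE7 DMSO (0.0707) or TE7 200 nM library (0.0532), without the block (0.255) and under all 3 other scalings (0.131 to 0.918). The second was lost without the 50 nM 6 h library of KYSE510 (limma adjusted p = 0.0672) or TE7 (0.0710), without the block (0.146), and under median-of-ratios (0.102) and upper-quartile scaling (0.149). At 12 h the difference from DMSO was 0.60 (SE 0.24, limma adjusted p = 0.103). It passed under median-of-ratios (1.21, limma adjusted p = 0.0152) and upper-quartile scaling (1.10, limma adjusted p = 0.0211), without the KYSE510 200 nM (0.0129) or the TE7 200 nM library (0.0126), and with only the 9 libraries that do not stand apart (0.00543). The coiled-coil gene CCDC85C overlaps the listed locus of CCNK and had 5.47 to 42.8 FPKM. RP11-688G15.3 lies inside that locus and had 0.327 to 44.4 FPKM, with at least 1 FPKM in 10 of the 12 libraries. Reads of these overlaps may be counted for either gene.

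Within each library the cyclin K transcript stood in a different ratio to its kinases at 12 h. CCNK over the sum of CDK12 and CDK13 was 2.58 in KYSE510 and 6.11 in TE7 after 12 h at 50 nM, against 0.958 and 1.78 in DMSO. At 200 nM it was 1.02 and 1.61 in KYSE510 and TE7, close to DMSO. CDK12 over CDK13 was 3.42 and 3.04 after 6 h at 50 nM in KYSE510 and TE7 and 1.85 and 0.796 after 12 h, against 1.82 and 1.58 in DMSO. CDK12 thus exceeded CDK13 in every library except TE7 at 12 h.

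A slope over hours used the 10 DMSO and 50 nM libraries together, with DMSO at 0 h. Of the 9 members, 7 had a mean slope past the threshold, where 46.0% of tested genes passed, 6.91% upward and 39.1% downward, and the median slope of all genes was -0.04 log2 per hour. CDK9 fell by 0.12 per hour (SE 0.01, limma adjusted p = 0.000173), CDK12 by 0.10 (SE 0.02, 0.00764), MNAT1 by 0.08 (SE 0.01, 0.000636), CDK7 by 0.08 (SE 0.02, 0.00638) and CDK13 by 0.06 (SE 0.02, 0.0480). CCNT2 rose by 0.09 per hour (SE 0.01, limma adjusted p = 0.000353) and CCNK by 0.05 (SE 0.01, 0.00591). CCNT1 (0.04 ± 0.01, SE, limma adjusted p = 0.0525) and CCNH (-0.03 ± 0.01, SE, adjusted p = 0.0754) did not pass. With only the 9 libraries that do not stand apart CCNT1 passed as well (limma adjusted p = 0.0142), which made 8 members, where 61.5% of tested genes did. The falls of CDK7 and CDK12 were lost without the KYSE510 12 h library (limma adjusted p = 0.226 and 0.277) or the TE7 12 h library (0.226 and 0.273). The fall of CDK13 was lost without any 1 of 7 libraries (limma adjusted p 0.0612 to 0.178). Median-of-ratios scaling left 1 fall, that of CDK9, and 3 rises, those of CCNT1, CCNT2 and CCNK, against 5 falls and 2 rises with the deposited values. Upper-quartile scaling gave 3 falls and 3 rises, and equal sums 6 falls and 1 rise. The shares of all tested genes with a called slope under these scalings are not given here.

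The slopes of the 2 lines were not shown to differ for any member. Of the 9, 0 passed the test of the difference of slopes, as 0.0705% of all tested genes did. At an unadjusted p under 0.05 there was 1, CCNH, whose slope was higher in KYSE510 than in TE7 by 0.07 per hour (SE 0.02, limma adjusted p = 0.289). With 10 libraries this test has few degrees of freedom, and a missed threshold does not show that the slopes are alike.

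The remaining comparisons of times and doses gave fewer calls. The 200 nM libraries against 50 nM at 6 h gave 3 falls among the 9 members, CDK7, CCNT1 and CCNK as described, where 24.8% of tested genes passed, 21.9% lower, and the median difference of all genes was -0.46. Against 2 h, the 12 h libraries gave 3 calls: CDK12, CCNT2, which rose by 0.89 (SE 0.19, limma adjusted p = 0.0157), and MNAT1, which fell by 0.78 (SE 0.23, limma adjusted p = 0.0426). Of all tested genes 21.9% passed there, 1.88% higher and 20.0% lower, with a median difference of -0.43. With only the 9 libraries that do not stand apart 7 members passed (CDK7, CDK9 and CDK13 lower and CCNK higher in addition), and 55.2% of tested genes did. The MNAT1 fall was lost without any 1 of the 8 libraries at 50 nM (limma adjusted p 0.0796 to 0.220). The CCNT2 rise was lost without any 1 of the 4 libraries at 2 or 12 h (limma adjusted p 0.0668 to 0.129), and the CDK12 fall without the 2 h library of KYSE510 (0.0600) or of TE7 (0.0806) or the TE7 12 h library (0.0572). Against 6 h, the 12 h libraries gave 0 calls in limma, with 4 members at an unadjusted p under 0.05, and 0.922% of tested genes passed. With only the 9 libraries that do not stand apart 5 members passed, CCNT2 higher and CDK7, MNAT1, CDK9 and CDK12 lower, where 31.5% of tested genes did.

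**Figure D4:**
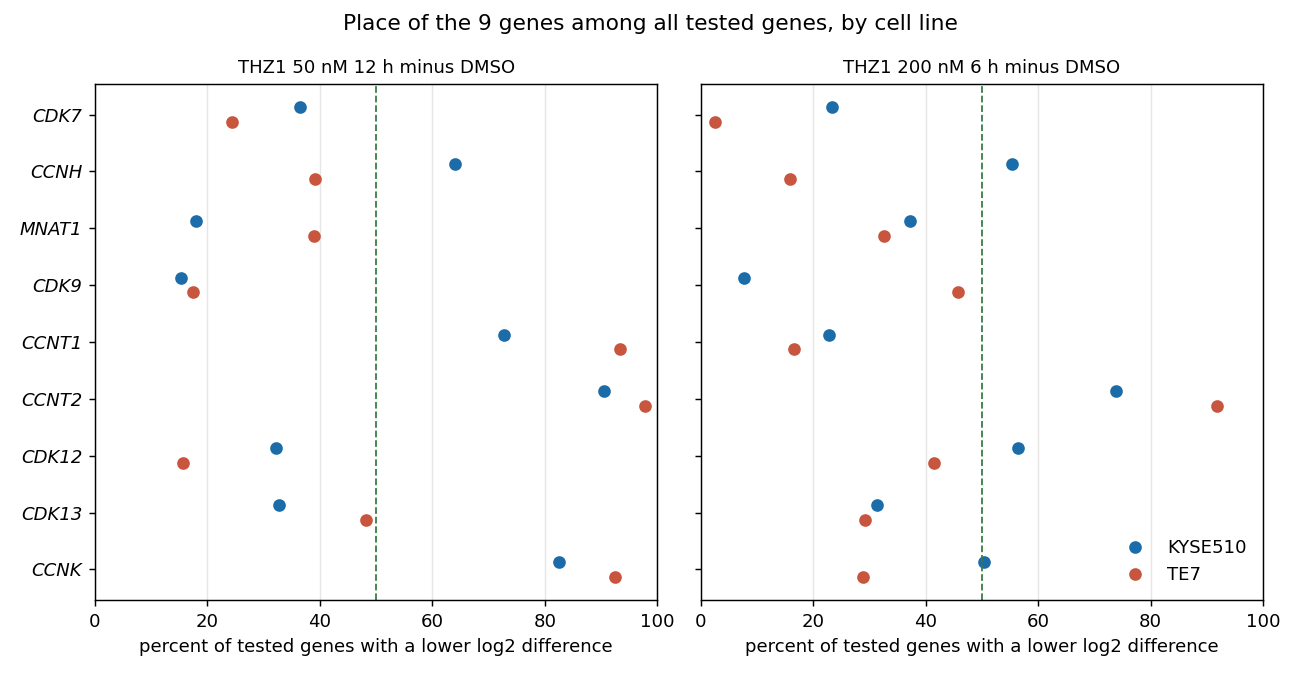
Percent of the 15610 tested genes with a lower log2 difference than each of the 9 genes, for THZ1 at 50 nM for 12 h minus DMSO (left) and THZ1 at 200 nM for 6 h minus DMSO (right), in KYSE510 (blue) and TE7 (red), each from 1 library pair. The dashed line is the median gene. CCNT2 lies at 90.5% and 97.9% at 12 h, and CDK7 at 23.4% and 2.59% at 200 nM.

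Within each line, the place of a member among all tested genes is unchanged when the median difference is subtracted. Rescaling a library can still move it, because 1 FPKM is added before the log. After 12 h at 50 nM, CCNT2 stood above 90.5% of tested genes in KYSE510 and 97.9% in TE7, CCNK above 82.6% and 92.4%, and CCNT1 above 72.7% and 93.3%. CDK9 stood above 15.4% and 17.4%, and CDK12 above 32.1% and 15.7%. At 200 nM CDK7 stood above 23.4% of genes in KYSE510 and 2.59% in TE7, CCNT1 above 22.8% and 16.6%, and CCNT2 above 73.9% and 91.7%. Thus CCNT1 and CCNK lay above the median gene at 12 h in both lines, although neither passed its own test on the deposited scale.

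The lines themselves differed in 2 of the 9 transcripts over the 6 conditions, while 46.3% of all tested genes passed this comparison, 17.5% higher and 28.9% lower in KYSE510. CDK12 was higher in KYSE510, which had 10.6 to 23.9 FPKM with a median of 20.9, than in TE7, which had 5.22 to 17.5 FPKM with a median of 14.6. The difference was 0.59 (SE 0.13, limma adjusted p = 0.00832). CCNK was lower in KYSE510, with 18.9 to 42.1 FPKM and a median of 31.6, against 19.0 to 72.0 FPKM and a median of 60.5 in TE7 (-0.68 ± 0.14, SE, limma adjusted p = 0.0065). With equal sums of FPKM the CCNK call was lost (limma adjusted p = 0.0878), while CDK7 and CDK13 were called higher in KYSE510. With only the 9 libraries that do not stand apart 4 members passed, with MNAT1 and CCNT1 lower in KYSE510 in addition, and 68.4% of tested genes did. The ranges of the lines overlapped for both genes. Line and culture medium cannot be told apart, since the labels give a different medium for each line.

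Genes that work with these kinases were counted in the same way, beside the background of all tested genes: 3.27% rose and 25.2% fell at 12 h with a median of -0.42, and 3.22% rose and 35.3% fell at 200 nM with a median of -0.65. Of the 7 core TFIIH subunits, which carry the CDK7 complex, 0 rose and 4 fell at 12 h of 50 nM, with a median difference of -0.81 against -0.42 for all genes, led by the helicase genes ERCC2 (-1.25) and ERCC3 (-1.13). At 200 nM 0 rose and 3 fell, with a median of -0.60 against -0.65, a share near that of all genes. With median-of-ratios or upper-quartile scaling 0 of the 7 passed in either comparison. With equal sums 0 rose and 5 fell at 12 h, and 0 passed at 200 nM. Near-identical copies of GTF2H2 in the genome make its own value uncertain.

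Of the 10 genes reported here that control P-TEFb, 3 fell at 12 h and 0 rose, a share near the 25.2% of all genes that fell, with a median of -0.80 against -0.42. LARP7, a stabiliser of the inhibitory 7SK particle, fell by 1.10 (SE 0.24, limma adjusted p = 0.0123), HEXIM2, a P-TEFb inhibitor, fell by 1.50 (SE 0.35, 0.0158), and MLLT3, a super elongation complex subunit, fell by 1.43 (SE 0.42, 0.0379). ELL, an elongation factor, had a difference of 1.02 that missed the threshold (SE 0.35, limma adjusted p = 0.0652). At 200 nM 0 rose and 7 fell, where 35.3% of all genes fell, with a median of -1.16 against -0.65, among them AFF1 (-1.27) and AFF4 (-1.05), the scaffolds of the super elongation complex. With median-of-ratios scaling 1 rose (ELL) and 1 fell (HEXIM2) at 12 h, and 1 fell (AFF1) at 200 nM, and upper-quartile scaling called the same genes. With equal sums 0 rose and 3 fell at 12 h, and 0 rose and 4 fell at 200 nM.

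Of 8 other transcription-linked kinase and cyclin genes, 2 rose and 4 fell at 12 h, with a median of -0.77 against -0.42. The Mediator kinase gene CDK19 fell by 2.33 (SE 0.26, limma adjusted p = 0.00144) and its paralog CDK8 by 1.19 (SE 0.24, 0.0100). CDK10 fell by 1.51 (SE 0.26, limma adjusted p = 0.00549), and CCNL2, a cyclin of the splicing-linked kinase CDK11, rose by 0.91 (SE 0.17, 0.00670). At 200 nM 1 rose, CCNL2 (1.20), and 3 fell, CDK19 (-2.12), CDK8 (-1.26) and the Mediator cyclin gene CCNC (-1.24), with a list median of -0.13 against -0.65, and 35.3% of all genes fell. With median-of-ratios scaling 3 rose and 2 fell at 12 h, and 2 rose and 1 fell at 200 nM. With equal sums 1 rose and 4 fell at 12 h, and 1 rose and 3 fell at 200 nM. CDK19 fell and CCNL2 rose in both comparisons under all 3 other scalings. CDK11A and CDK11B are near-identical copies, and their separate values are uncertain.

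The 4 cell-cycle kinases that CDK7 activates gave 0 rises and 1 fall in each comparison, CDK4 at 12 h (-0.55 ± 0.16, SE, limma adjusted p = 0.0350) and CDK1 at 200 nM (-1.77 ± 0.35, SE, limma adjusted p = 0.00599), with medians of -0.43 and -0.18. These counts are no more than the background, in which 25.2% and 35.3% of all genes fell. With median-of-ratios or upper-quartile scaling neither fell: CDK6 rose at 12 h, and CDK4 and CDK6 rose at 200 nM. With equal sums CDK4 fell at 12 h, and at 200 nM CDK1 fell and CDK4 rose.

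Of 11 genes for RNA polymerase II, its CTD phosphatases and its pausing factors, 2 rose and 4 fell at 12 h, with a median of -0.56 against -0.42. POLR2A, the subunit that carries the CTD, rose by 1.63 (SE 0.20, limma adjusted p = 0.00190). RPAP2 and SSU72, both CTD phosphatases, fell by 1.41 (SE 0.20, limma adjusted p = 0.00294) and by 1.14 (SE 0.29, 0.0226), and the pausing factor gene NELFB fell by 1.33 (SE 0.38, 0.0331). At 200 nM 0 rose and 4 fell, RPAP2 (-1.97), CTDP1 (-1.96), NELFA (-1.62) and SUPT4H1 (-1.30), with a median of -0.88 against -0.65, a share near the 35.3% of all genes that fell. With median-of-ratios or upper-quartile scaling POLR2A and SUPT5H rose and RPAP2 fell at 12 h, and SUPT5H rose and RPAP2 and CTDP1 fell at 200 nM. With equal sums 1 rose and 4 fell at 12 h, and 0 rose and 4 fell at 200 nM.

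Some genes followed the kinases closely over the 12 libraries. Likeness was the Pearson r of log2(FPKM + 1) after each line's mean was removed, over 8865 genes with a mean of at least 5 FPKM, and is given without a test since all points share libraries and conditions. The closest to CDK7 were PDCD4 (r = 0.994), SCAMP2 (0.989) and TRIB3 (0.989). GRHL2 (r = 0.982), KCTD20 (0.978) and ESRP2 (0.978) were closest to CDK9, OFD1 (r = 0.993), C9orf114 (0.991) and COMMD5 (0.988) to CDK12, and SPOP (r = 0.963), PYGO2 (0.959) and PUM2 (0.959) to CDK13. No gene appeared under more than 1 of the 4 kinases.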

How the data were processed

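The authors deposited 1 gene table per library in FPKM with lower and upper 95% bounds, per the file headers. STAR, Cufflinks and hg19 are named per the submitters' processing notes, and for versions, gene annotation and strand settings the entry is: not given in the sources used here. Each table held 57869 lines for 57755 identifiers, of which 108 were listed at several loci and summed. Fragment totals being unknown, no count test was run.

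Values were analysed as log2(FPKM + 1), which understates changes of low genes. Genes reaching 1 FPKM in 2 or more libraries (15610) were fitted with limma 3.58.1 in R 4.3.3, with condition terms, a cell-line block and a variance trend, two-sided, with Benjamini-Hochberg adjustment and a threshold of 0.05. Libraries with the same replicate number are of 1 cell line, which makes the block a pairing by design. The condition fit left 5 residual degrees of freedom plus 2.86 from the prior, and the slope fit 6 plus 2.56. Each condition has 1 library per line, so the lines stand in as replicates, and a p-value reflects no more than the variation among these 12 libraries. The fits were tested on simulated data.

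The members and lists were chosen with earlier results of these data known. All 9 members are named. From each list up to 4 genes with the smallest p in a comparison are named, and for each kinase the 3 genes with the highest r. 1 gene of the P-TEFb list is not reported here and was left out of that list's counts and medians after they had been seen. SUPT5H, CDK6 and the genes overlapping CCNH and CCNK were named after their values were seen. Alternatives were pseudocounts of 0.1 and 5, no filter, a mean of at least 5 FPKM, 3 scalings, other variance estimates, no block, and libraries left out singly or 3 together. Counts of the partner lists under the scalings were added after seeing the data, and the share of all tested genes under those scalings is not given beside them. Tables and figures were made in Python 3.11.15 with pandas 2.3.3, numpy 2.4.6 and matplotlib 3.10.9.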

Additional observations from a re-analysis of the deposited data

Results flagged for a closer look

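In 5 cases the lines moved in opposite directions, with the deposited 95% bounds of the 2 libraries apart in each line. With 1 library per line and condition none of these differences was tested. The 5 cases were picked from all members in the comparisons of doses and times, and the bounds do not cover variation between replicate libraries. How many of all tested genes met the same rule is not given here. The 5 cases are therefore not set against a background and are not a result about the members alone. For CDK9 at 200 nM against 50 nM at 6 h, the log2 difference was -1.42 in KYSE510 and 0.21 in TE7, a gap of -1.63 (KYSE510 minus TE7). For CDK13 at 12 h against 6 h it was -0.24 in KYSE510 and 0.50 in TE7, a gap of -0.74. At 2 h against DMSO CDK13 differed by 0.15 in KYSE510 and by -0.22 in TE7, a gap of 0.37. CCNT1 at 4 h against DMSO differed by -0.27 in KYSE510 and by 0.44 in TE7, a gap of -0.71. CDK12 at 6 h against DMSO differed by 0.33 in KYSE510 and by -0.26 in TE7, a gap of 0.59. The last 3 involve the library labelled KYSE510 DMSO, which stands apart from the other KYSE510 libraries, and the first involves the 200 nM libraries.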

How the results depend on the processing

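Over 23 alternatives and 99 pairs of a member and a comparison, 2241 values were recomputed: 103 lost a call, 63 gained one, and 0 changed sign with a call. A further 88 changed sign without a call, and no direction was read from those. At 12 h against DMSO, with 4 members called, upper-quartile scaling called 2 and the fit without the 3 libraries that stand apart called 8. At 200 nM against DMSO, with 7 called, equal sums called 3, median-of-ratios 2 and upper quartile 2. At 12 h against 2 h, with 3 called, equal sums called 5 and leaving out the 3 libraries 7. At 12 h against 6 h, with 0 called, a mean of at least 5 FPKM called 1 and leaving out the 3 libraries 5. Leaving them out also called 4 at 6 h against DMSO, where the count was 0, and 4 between the lines, where it was 2. The mean slope, with 7 called, gave 4 with median-of-ratios scaling. The cause of these changes was not tested. Without the block for the cell line, the pairing of libraries by line, 1 member was called at 12 h against DMSO, 0 at 12 h against 2 h, 5 at 200 nM against DMSO, 2 at 200 nM against 50 nM and 5 for the slope. Leaving out 1 library at a time gave 2 to 6 calls at 12 h against DMSO, 5 to 7 at 200 nM against DMSO, 1 to 5 at 200 nM against 50 nM, 0 to 5 at 12 h against 2 h, 0 to 2 at 12 h against 6 h, 0 to 1 at 6 h, 2 to 3 between the lines and 4 to 8 for the mean slope. It gave 0 throughout at 2 h, at 4 h and for the difference of slopes. A library left alone in its condition is assumed to vary like the others. Unknown fragment totals limit what can be said of precision. The share of all tested genes called also differs between fits and is not given here for most alternatives. Changes in these counts of members are therefore not a result about the members alone.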
